A study of Mus musculus with 10 samples.

Results

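The 10 genes described here encode a widely expressed glucose transporter and 9 enzymes of glycolysis: Slc2a1, Hk2, Pfkp, Aldoa, Gapdh, Pgk1, Pgam1, Eno1, Pkm and Ldha. They were chosen by symbol as glycolytic genes active in the embryonic tail bud, and all 10 were found among the 38720 gene rows of the count table. RNA had been sequenced from microdissected mouse tail buds at the stage labelled e12point5, in 10 libraries of 3 groups. The Lin28a-induced group (n = 4, replicates 2 to 5) came from doxycycline-treated embryos that carried TRE-Lin28a, RLSL-rtTA and FoxD1-Cre. The no-Cre group (n = 3, replicates 6 to 8) was also treated with doxycycline and carried TRE-Lin28a and RLSL-rtTA but not FoxD1-Cre. The wild-type group (n = 3, replicates 1 to 3) has no transgene and no doxycycline in its labels. Doxycycline lets rtTA act on the TRE promoter. As its name says, the Cre that releases rtTA is tied to FoxD1, so the bulk tissue can also hold cells in which the transgene was never switched on. The sources used here give neither the dose nor the start of doxycycline.

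Glycolysis splits glucose into pyruvate, with a first phase that spends ATP (hexokinase, phosphofructokinase, aldolase) and a second that returns it (glyceraldehyde-3-phosphate dehydrogenase, phosphoglycerate kinase, phosphoglycerate mutase, enolase, pyruvate kinase). Lactate dehydrogenase then turns pyruvate into lactate and regenerates NAD+, which keeps the pathway running where pyruvate does not enter mitochondria. In the vertebrate tail bud, glycolytic activity is known to be high in the posterior progenitor cells and to decline as cells enter the presomitic mesoderm, and FGF signalling is known to sustain it. Lin28a is an RNA-binding protein that blocks maturation of let-7 microRNAs, and the Lin28/let-7 pair has been tied to glucose metabolism in other mouse tissues.

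The libraries held 29898412 to 39517946 counts in the Lin28a-induced group, 29300166 to 38893332 in the no-Cre group and 21762668 to 25316537 in wild type. Lin28a itself measured 664, 605, 750.3 and 731 CPM (counts scaled to the TMM-adjusted library size) in the Lin28a-induced libraries, against 5.03, 4.53 and 2.64 CPM in the no-Cre and 6.16, 5.72 and 4.45 CPM in the wild-type libraries. All 12 tail bud marker genes were found, with a summed level of 1568 to 1916 CPM in Lin28a-induced, 1551 to 1630 CPM in no-Cre and 844 to 1553 CPM in wild-type libraries. The low end was wild-type replicate 2, where the sum was 844 CPM, and the other wild-type libraries had 1526 and 1553 CPM. Wild type stood apart from both transgenic groups in composition. Mitochondrially encoded transcripts took 0.446 to 0.690% of counts in Lin28a-induced, 0.525 to 0.610% in no-Cre and 1.85 to 2.69% in wild-type libraries, and the 8 surface ectoderm markers summed to 276 to 323, 295 to 332 and 826 to 1034 CPM in the same groups. The 8 endothelial markers summed to 291 to 398, 305 to 337 and 77.8 to 151 CPM, and 9 macrophage markers to 101 to 123, 85.4 to 100.3 and 38.0 to 76.8 CPM. Red blood cell markers summed to 3751 to 6146, 5657 to 9562 and 2761 to 8097 CPM, cartilage markers to 209 to 271, 252 to 276 and 242 to 466 CPM, and neuron and skeletal muscle markers to at most 18.6 CPM in any library. In each comparison with wild type, all 8 ectoderm markers were lower and all 8 endothelial markers were higher in the transgenic group. Strain, handling, doxycycline and the transgenes cannot be told apart in any difference from wild type. In bulk tissue, fewer cells of a type and less RNA per cell cannot be told apart either.

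The 10 genes together took 0.594, 0.548, 0.578 and 0.642% of the counts in Lin28a-induced replicates 2 to 5, against 0.642, 0.632 and 0.639% in no-Cre replicates 6 to 8 and 0.832, 0.749 and 0.716% in wild-type replicates 1 to 3. Wild type held the 3 highest shares, and the Lin28a-induced range touched that of no-Cre through replicate 5 alone. Per kilobase of annotated exon, the levels followed much the same order in each group. Pkm, pyruvate kinase, stood at 399.5 ± 30.4 CPM per kb in Lin28a-induced, 419.8 ± 5.70 in no-Cre and 513 ± 33.6 in wild-type tail buds (SD; n = 4, 3 and 3). Ldha, lactate dehydrogenase A, stood at 392 ± 32.6, 424 ± 10.3 and 528 ± 76.0 CPM per kb. By this length, Pkm and Ldha did not differ beyond their spread within a group. Per kilobase of the longest transcript, Pkm stood above Ldha in no-Cre tail buds, at 863 ± 11.7 against 774 ± 18.8 CPM per kb. Aldoa, an aldolase, came next with 230.1 ± 19.3, 272 ± 5.18 and 322 ± 31.6 CPM per kb. Gapdh, Eno1 and Pgk1 followed between 99.8 and 169 CPM per kb in group means, in an order that changed with the group and with the length used. Slc2a1 stood at 56.9 ± 3.28, 57.5 ± 1.32 and 88.4 ± 1.13 CPM per kb, Pgam1 between 38.3 and 41.0, and Hk2 between 25.1 and 29.1 in group means. Pfkp was last, with 1.14 ± 0.0796, 1.26 ± 0.0799 and 2.10 ± 0.428 CPM per kb.

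**Figure D1:**
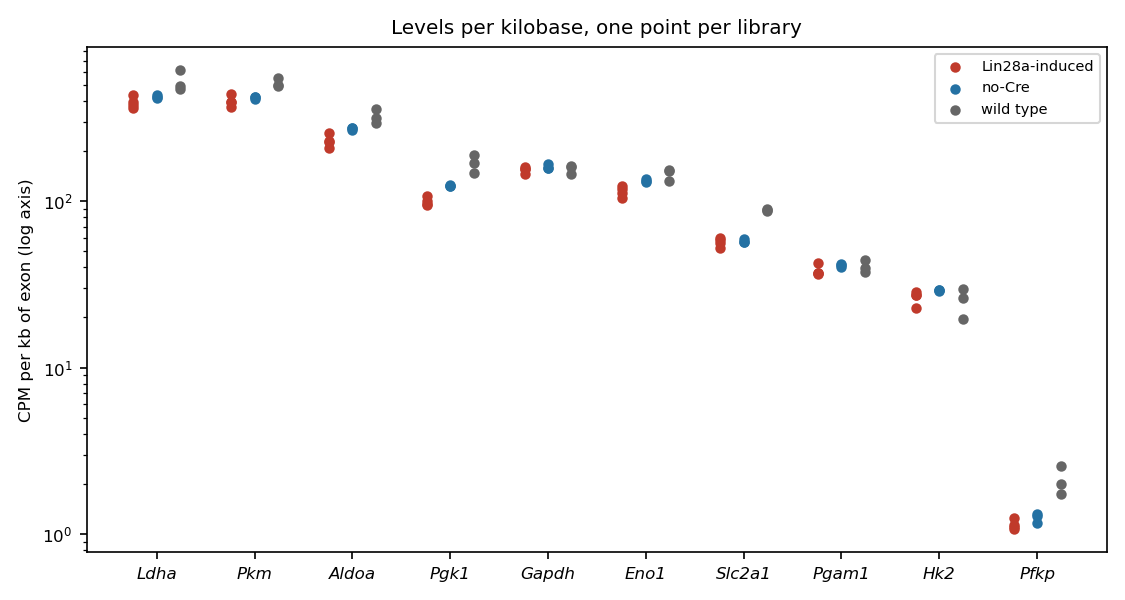
Level of each gene in CPM per kilobase of exon (log axis), one point per library, with Lin28a-induced libraries at the left of each gene, no-Cre in the middle and wild type at the right. Genes run from the highest to the lowest wild-type mean, and Pfkp lies far below the other 9 genes in every library.

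The comparison of Lin28a-induced with no-Cre tail buds asks what differs with FoxD1-Cre among doxycycline-treated embryos that carry both transgenes. All 10 genes had negative log2 fold changes, as did 8212 of the 16340 genes tested, and 1 passed the threshold: Pgk1, phosphoglycerate kinase, the first enzyme of the pathway to return ATP (chrX:106187100-106203699, GRCm38, plus strand). Pgk1 measured 225, 212, 217 and 242 CPM in Lin28a-induced replicates 2 to 5, against 277, 279 and 277 CPM in no-Cre replicates 6 to 8. Every Lin28a-induced library lay below every no-Cre library. The log2 fold change was -0.31 ± 0.07 (SE; edgeR quasi-likelihood test, Benjamini-Hochberg adjusted p = 0.0348). Of all genes tested, 2.91% were called in this comparison, 1.76% higher and 1.15% lower. The Pgk1 call is not stable. Its log2 fold change stayed between -0.35 and -0.29 in the 10 edgeR fits that each leave out 1 library, but it passed in 4 of them. Without Lin28a-induced replicate 2, 3 or 4 the adjusted p was 0.0737, 0.0871 and 0.120, and without no-Cre replicate 6, 7 or 8 it was 0.127, 0.145 and 0.137. Pgk1 is X-linked, and Lin28a-induced replicate 5 and no-Cre replicate 7 came from females by their Xist counts. With sex as a term in the edgeR fit the log2 fold change was -0.30 and the adjusted p 0.0551.

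Aldoa (chr7:126795234-126800751, minus strand), which splits fructose 1,6-bisphosphate, measured 656, 611, 666 and 746 CPM in the Lin28a-induced libraries, against 775, 803 and 797 CPM in the no-Cre libraries. The ranges did not overlap, but the log2 fold change of -0.24 ± 0.07 did not pass (edgeR adjusted p = 0.0934). Eno1, enolase 1 (chr4:150236721-150248879, plus strand), likewise measured 636, 559, 605 and 666 CPM, against 727, 702 and 714 CPM in the no-Cre libraries, with -0.21 ± 0.07 (edgeR adjusted p = 0.106). Both passed in DESeq2 (Aldoa 0.0361 and Eno1 0.0465 as adjusted p), in an edgeR fit of these 2 groups alone, and in the edgeR fit without wild-type replicate 2 (adjusted p = 0.0266 and 0.0441). With Hk2, 4 of the 10 genes had groups that did not overlap, and 11.4% of all tested genes had Lin28a-induced ranges wholly below the no-Cre range. The other 7 log2 fold changes ran from -0.14 for Pfkp to -0.02 for Slc2a1. For Slc2a1, the GLUT1 transporter that carries glucose across the cell membrane, the 95% interval was -0.12 to 0.09. For Gapdh it was -0.16 to 0.05, and for Pkm -0.19 to 0.05. The median over the 10 genes was -0.13, beside -0.0008 over all tested genes.

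**Figure D2:**
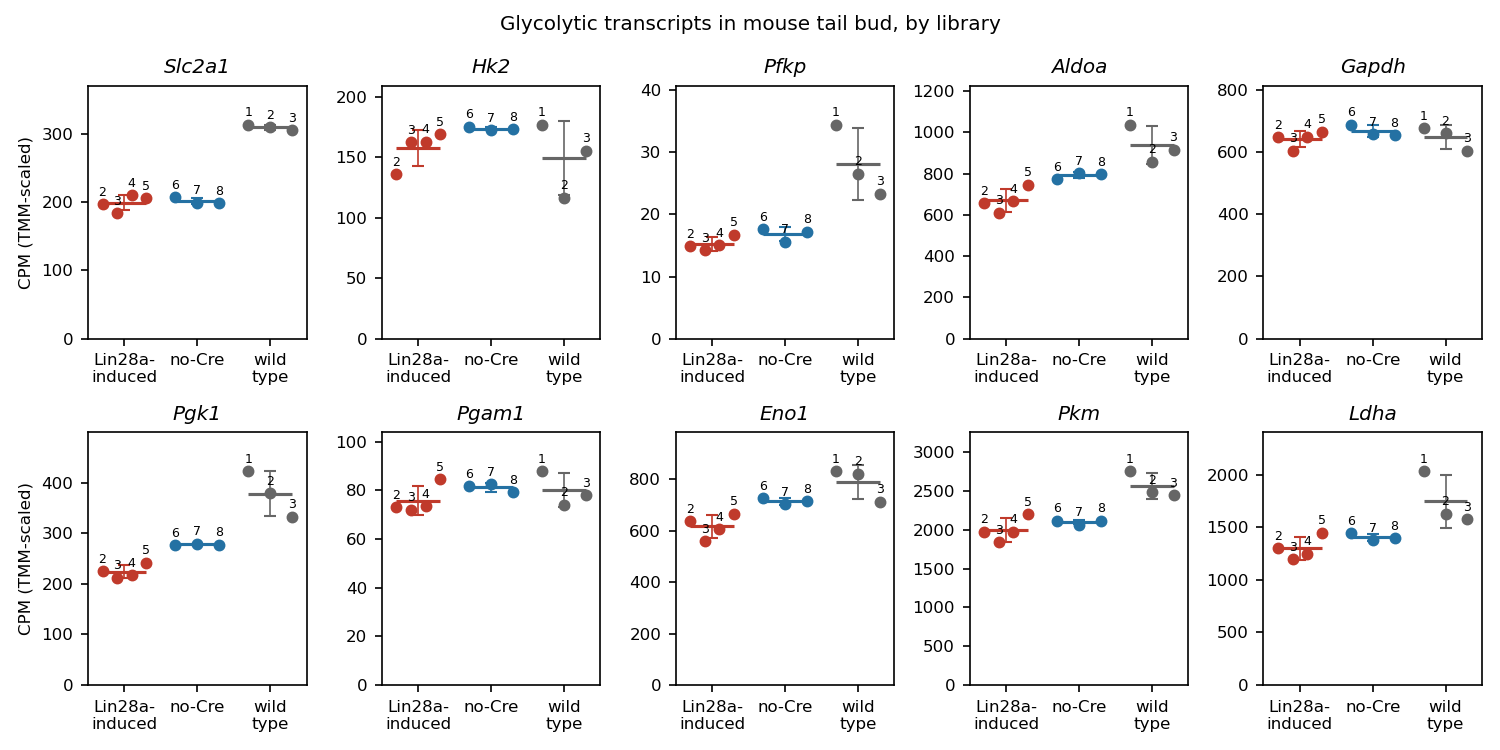
Level of each gene in TMM-scaled CPM, one point per library numbered by replicate, for Lin28a-induced (left), no-Cre (middle) and wild-type (right) tail buds. The horizontal line is the group mean and the bar its SD, and for Slc2a1 the 7 transgenic libraries sit between 184 and 210.2 CPM while the 3 wild-type libraries sit between 306 and 314 CPM.

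Against wild type, 7 of the 10 genes were lower in Lin28a-induced tail buds and none was higher: Slc2a1, Pfkp, Aldoa, Pgk1, Eno1, Pkm and Ldha. In this comparison 49.3% of all tested genes were called, 24.3% higher and 25.0% lower, so a gene called lower is common. The median log2 fold change was -0.39 over the 10 genes and -0.02 over all tested genes. The same 7 genes were called in every fit that left out 1 library and by DESeq2 and limma-voom.

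Slc2a1 (chr4:119108711-119137983, plus strand) measured 198, 184, 210.2 and 206 CPM in Lin28a-induced libraries, against 314, 309.8 and 306 CPM in wild type. The groups lay far apart for the spread within them, and the log2 fold change was -0.64 ± 0.05 (edgeR adjusted p = 6.4e-07). Pfkp, a phosphofructokinase of the committed step (chr13:6579768-6648777, minus strand), measured 14.8, 14.3, 15.1 and 16.7 CPM, against 34.5, 26.6 and 23.4 CPM in wild type. It had the largest fall of the 10, -0.89 ± 0.11 (edgeR adjusted p = 3.3e-05), from the lowest level of the 10. Pgk1, at 225, 212, 217 and 242 CPM against 423, 379 and 333 CPM in wild type, fell by 0.76 ± 0.07 on the log2 scale (edgeR adjusted p = 2.1e-06).

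Aldoa, with 1038, 858 and 916 CPM in wild type, fell by 0.48 ± 0.07 (edgeR adjusted p = 9.3e-05). Ldha (chr7:46841475-46855627, plus strand) measured 1298, 1198, 1249.8 and 1448 CPM in Lin28a-induced libraries, against 2035, 1630.0 and 1574 CPM in wild type, a log2 fold change of -0.43 ± 0.08 (edgeR adjusted p = 0.00112). Pkm (chr9:59656368-59679375, plus strand) measured 1976, 1836, 1976 and 2204 CPM, against 2756, 2487 and 2448 CPM in wild type. No Lin28a-induced library reached the wild-type range for these 3 genes. The log2 fold change was -0.36 ± 0.06 for Pkm (edgeR adjusted p = 0.000283) and -0.35 ± 0.07 for Eno1 (edgeR adjusted p = 0.000584).

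Hk2, Gapdh and Pgam1 did not pass against wild type. Hk2, the hexokinase that traps glucose in the cell (chr6:82725025-82774454, minus strand), measured 136 to 169 CPM in Lin28a-induced and 117 to 177 CPM in wild-type libraries. Its log2 fold change was 0.07, with a 95% interval of -0.16 to 0.31. Pgam1, the mutase that moves the phosphate of phosphoglycerate (chr19:41911923-41918660, plus strand), measured 72.1 to 84.7 CPM and 74.2 to 88.0 CPM in wild type (log2 fold change -0.08, interval -0.21 to 0.06). Gapdh (chr6:125161715-125166467, minus strand) measured 647, 603, 649 and 665 CPM, against 676, 660.0 and 603 CPM in wild type (log2 fold change -0.01, interval -0.12 to 0.09). The intervals of Gapdh and Pgam1 leave out a fall as large as that of any of the 7 genes that passed, on the counts as deposited at the 2 gene rows.

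The no-Cre libraries, which share the same wild-type libraries as their control, gave 6 of 10 lower and none higher. Of all tested genes, 42.5% were called here, 21.0% higher and 21.4% lower. Slc2a1 measured 207, 199 and 199 CPM in no-Cre libraries, against 314, 309.8 and 306 CPM in wild type, a log2 fold change of -0.62 ± 0.06 (edgeR adjusted p = 2.4e-06). Pfkp, at 17.7, 15.6 and 17.2 CPM in no-Cre libraries, had -0.74 ± 0.12 (edgeR adjusted p = 0.000368). Both lay wholly below wild type. Pgk1 had -0.45 ± 0.08 (edgeR adjusted p = 0.000475), Ldha -0.31 ± 0.09 (0.0145), Pkm -0.29 ± 0.07 (0.00314) and Aldoa -0.24 ± 0.08 (0.0201). Eno1, with -0.14 ± 0.07 (edgeR adjusted p = 0.120), did not pass. Neither did Hk2 (0.21), Gapdh (0.04) or Pgam1 (0.02). The median log2 fold change was -0.27 over the 10 genes, and -0.02 over all tested genes. Slc2a1, Pfkp, Pgk1 and Pkm were called in every fit that left out 1 library. Aldoa was lost without no-Cre replicate 6, 7 or 8 or wild-type replicate 1 (adjusted p up to 0.102), and Ldha without no-Cre replicate 7 or wild-type replicate 1 (up to 0.0560). Without wild-type replicate 1, Hk2 was higher in no-Cre than in wild type, at 0.36 (edgeR adjusted p = 0.0289). Without wild-type replicate 3, Eno1 was called lower, at -0.21 (adjusted p = 0.0229).

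**Figure D3:**
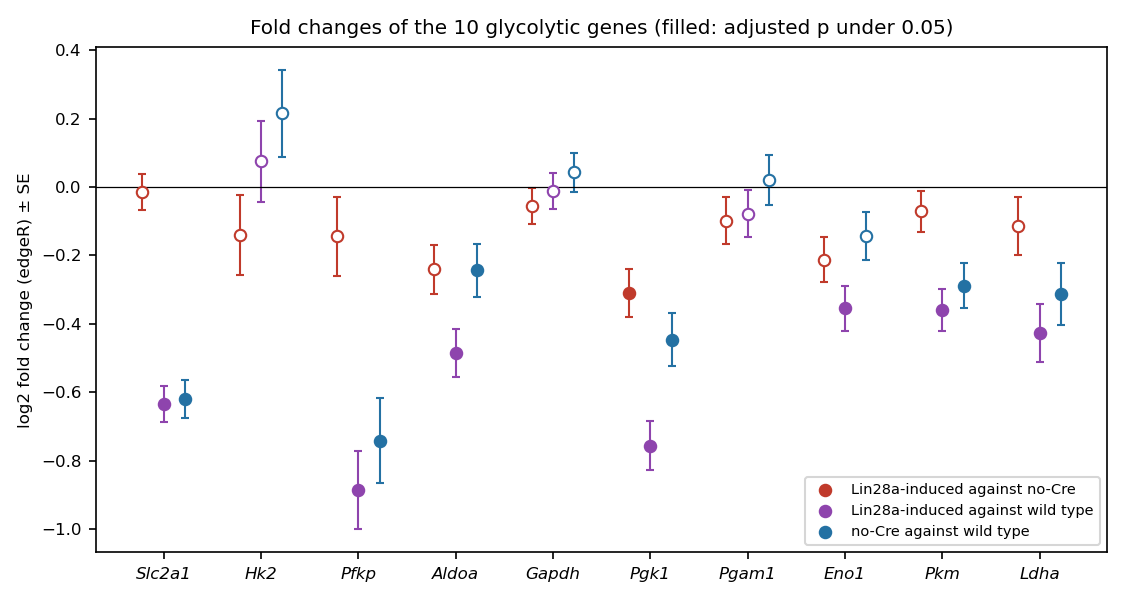
Log2 fold change with its standard error for each gene in the 3 comparisons, from left to right Lin28a-induced against no-Cre, Lin28a-induced against wild type and no-Cre against wild type. Filled points have an adjusted p under 0.05, as Pgk1 does in all 3 comparisons and Hk2, Gapdh and Pgam1 in none.

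Gapdh and Eno1 have near-identical copies elsewhere in the genome, and counts at these copies split the wild-type libraries from the rest. In the GENCODE annotation, 95 genes are copies of Gapdh by the measure used here (20% or more of a copy's 32-base stretches occur in Gapdh), and 85 of them have a row in the table. One is Gm13394, a processed pseudogene, that is, a copy of the mRNA set back into the genome (chr2:28933610-28934609, minus strand). Gm13394 measured 0.297, 0.406, 0.345 and 0.330 CPM in Lin28a-induced and 0.469, 0.536 and 0.309 CPM in no-Cre libraries, against 239.7, 237 and 209.7 CPM in wild type. The wild-type libraries held a sizeable level at this pseudogene beside their 603 to 676 CPM at Gapdh itself, and the transgenic libraries had almost none. The other 84 Gapdh copies together held 43.1 ± 1.02 CPM in Lin28a-induced, 47.7 ± 1.50 in no-Cre and 51.1 ± 4.82 in wild type (SD; n = 4, 3 and 3). Their Lin28a-induced range, 42.4 to 44.6 CPM, lay below the no-Cre range, 46.2 to 49.2 CPM. The no-Cre and wild-type ranges overlapped. Over 1000 aligned bases Gm13394 and the Gapdh mRNA differ at 1 base, A586C, counted from 1 at the 5′ end of the Gapdh transcript. The bases around it are shown in sense orientation because within the aligned bases they are all that tells a read of one from a read of the other, with the differing base in capitals.
Gapdh: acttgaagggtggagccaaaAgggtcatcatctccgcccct
Gm13394: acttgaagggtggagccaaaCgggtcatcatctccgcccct
Only 75 of the 926 stretches of 75 bases in Gm13394, the read length used, occur in no other annotated transcript. All 75 stretches of Gapdh over this base also occur in other annotated genes.

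Eno1 had 5 annotated copies by the same measure, 3 of them with a row, and 2 held at least 1% of its counts. Gm4735 is a processed pseudogene (chr2:80837141-80838442, plus strand) that measured 1.15, 0.871, 1.03 and 0.737 CPM in Lin28a-induced and 0.912, 1.07 and 0.961 CPM in no-Cre libraries, against 42.3, 46.2 and 34.0 CPM in wild type. It differs from the Eno1 mRNA at 5 of 1302 aligned bases: T1124C, T1214G, A1454G, T1622C and C1631T, counted from the 5′ end of the Eno1 transcript. The stretch with the last 2 is shown, with the differing bases in capitals.
Eno1: ccaagtacaaTcagatcctCagaattgagg
Gm4735: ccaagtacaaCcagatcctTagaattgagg
The second copy is the row Gm5506, a symbol that RefSeq lists as a synonym of the enolase gene Eno1b. It measured 0.0290 to 0.132 CPM in Lin28a-induced and 0.0298 to 0.0686 CPM in no-Cre libraries, against 125, 124 and 109 CPM in wild type. No transgenic library came near the wild-type level at either copy.

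When counts of copies were added to each gene, Gapdh measured 690.2, 646, 692 and 710.0 CPM in Lin28a-induced and 737, 704 and 701 CPM in no-Cre libraries, against 964, 954 and 861 CPM in wild type. Gapdh was then lower than wild type in both groups, at -0.44 in Lin28a-induced (edgeR adjusted p = 1.8e-05) and -0.38 in no-Cre tail buds (adjusted p = 0.000166). Eno1 with its copies was lower at -0.62 (adjusted p = 5.8e-06) in Lin28a-induced and -0.41 (adjusted p = 0.000512) in no-Cre tail buds, so 8 of 10 genes were called lower in each comparison. Between Lin28a-induced and no-Cre libraries, Gapdh had -0.06 with copies and -0.05 without, and Eno1 -0.21 either way (edgeR adjusted p = 0.637 and 0.106 with copies). Whether the wild-type counts at the copies were reads of Gapdh and Eno1 placed elsewhere or RNA of the copies was not tested. Reads of the other genes can also be shared: Pgk1 had 52.8% of its 75-base stretches in another annotated gene, Pgam1 34.9%, Pkm 17.8%, Ldha 2.47% and Aldoa 0.540%, against 0% for Slc2a1, Hk2 and Pfkp. The copies of Pgk1, Pgam1 and Ldha in the table held at most 0.435% of their gene's counts.

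**Figure D4:**
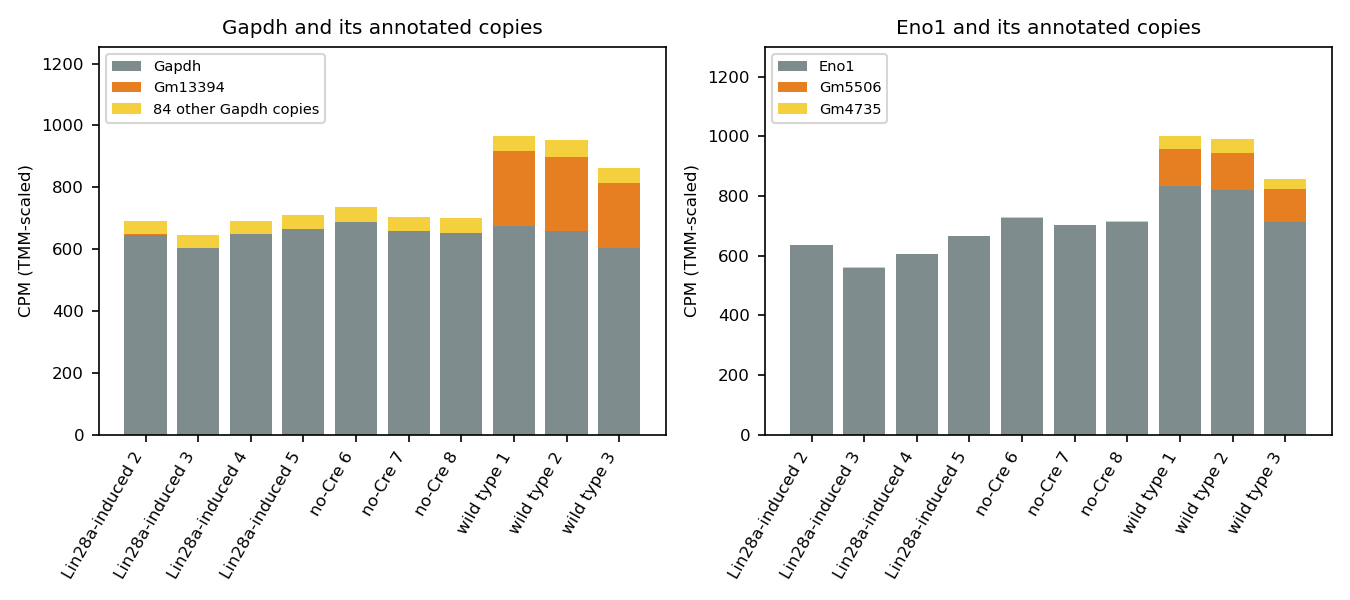
TMM-scaled CPM per library at Gapdh (left) and Eno1 (right) and stacked on them the counts at their annotated copies, with Lin28a-induced libraries first, then no-Cre and wild type. Gm13394, Gm5506 and Gm4735 are visible in the 3 wild-type libraries alone, where they bring both genes above every transgenic library.

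In the Lin28a-induced and wild-type groups, the highest and lowest levels of most of the 10 genes fell in the same libraries. Lin28a-induced replicate 5 had the highest level of 9 of the 10 genes within its group, and replicate 3 the lowest of 9, where 25.4% and 26.1% of all tested genes had their extreme in these libraries. Wild-type replicate 1 was highest for 10 of 10 genes (28.9% of all tested genes) and replicate 3 lowest for 7 of 10 (31.1%). In the no-Cre group the extremes were more scattered: replicate 6 was highest for 6 genes, replicate 7 for 3 and replicate 8 for 1, and they were lowest for 2, 5 and 3 genes. The genes share libraries, so these counts are a description of 10 libraries and not of 10 independent genes. Wild-type replicate 1 also had the lowest red blood cell marker sum of its group, 2761 CPM, against 6151 and 8097 CPM in the others. Its part in the levels was not tested.

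The leading isozyme of each family was the same in every group. Of the summed exon-length-scaled level of a family, Aldoa held 99.4% ± 0.102 in Lin28a-induced, 99.2% ± 0.101 in no-Cre and 99.1% ± 0.134 in wild type (SD; n = 4, 3 and 3), Ldha 89.5% ± 0.884, 91.2% ± 0.403 and 90.2% ± 1.74, and Hk2 82.3% ± 1.64, 83.6% ± 1.07 and 84.2% ± 2.77. Eno1 held 82.9% ± 1.19, 85.3% ± 0.857 and 79.3% ± 0.665 of the 3 enolases. The enolase shares leave out the copies of Eno1, which together held 143 to 170 CPM in wild-type libraries and almost none in transgenic libraries. Pfkp was a minor phosphofructokinase in all groups, with 1.51% ± 0.0378, 1.70% ± 0.152 and 2.58% ± 0.348, and its 3 wild-type libraries (2.20 to 2.88%) lay above all transgenic ones (1.46 to 1.86%). Slc2a1 held 39.2% ± 2.66, 40.3% ± 1.25 and 33.5% ± 1.90 of Slc2a1 to Slc2a4, since Slc2a3, the GLUT3 transporter, was more abundant per kilobase. Slc2a3 measured 702, 567, 595 and 572 CPM in Lin28a-induced and 578, 615 and 574 CPM in no-Cre libraries, against 1172, 1372 and 1172 CPM in wild type. Every transgenic library lay below wild type. It fell by 1.02 ± 0.08 and by 1.07 ± 0.08 on the log2 scale in the 2 groups (edgeR adjusted p = 3.6e-07 and 8.1e-07).

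The rest of the pathway was read from lists of related genes. Between Lin28a-induced and no-Cre tail buds, 0 of 16 other glycolytic steps and isozymes passed in edgeR (median log2 fold change 0.01). Among the 4 with the smallest p, Adpgk, an ADP-dependent glucokinase, had 0.22 ± 0.06, Bpgm, which makes 2,3-bisphosphoglycerate in red cells, -0.26 ± 0.08, Aldoc, another aldolase, -0.50 ± 0.17, and Gpi1, which turns glucose 6-phosphate into fructose 6-phosphate, -0.17 ± 0.07 (edgeR adjusted p from 0.0614 to 0.203). None of 10 other glucose and lactate carriers (median -0.06), 4 PFKFB regulators of phosphofructokinase (-0.007), 5 gluconeogenic genes (-0.15) or 11 regulators of glycolytic genes (-0.05) passed. Taldo1, transaldolase of the pentose phosphate pathway, was lower, with 132, 123, 127 and 133 CPM in Lin28a-induced libraries, against 165, 160.3 and 152 CPM in no-Cre libraries. It did not overlap between groups (-0.31 ± 0.05, edgeR adjusted p = 0.0049), and all 7 genes of that pathway had negative values (median -0.12). Of all 16340 tested genes, 8212 had negative values, 2.91% were called and 11.4% had Lin28a-induced ranges wholly below the no-Cre range. The median absolute log2 fold change over all tested genes was 0.12. Pdk2, a kinase that switches pyruvate dehydrogenase off, fell by 0.47 ± 0.12 (edgeR adjusted p = 0.0495) as 1 of 12 genes of pyruvate entry into mitochondria (median -0.09). Leaving out any 1 of the 7 transgenic libraries ended the Pdk2 call (adjusted p up to 0.231). Egln3, a prolyl hydroxylase gene that HIF induces, fell by 0.39 ± 0.08 (edgeR adjusted p = 0.0203) as 1 of 19 HIF targets outside glycolysis (median -0.12). Egln3 measured 20.6 to 24.5 CPM in Lin28a-induced, 28.0 to 30.5 CPM in no-Cre and 22.9 to 26.8 CPM in wild-type libraries. Every no-Cre library thus lay above every library of both other groups, and the Lin28a-induced and wild-type ranges overlapped. The Egln3 call was lost without Lin28a-induced replicate 2, 3 or 5 or any 1 no-Cre library (adjusted p up to 0.110).

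Against wild type, counts of lists are to be read beside the 25.0% (Lin28a-induced) and 21.4% (no-Cre) of all genes called lower. In Lin28a-induced tail buds 7 of 10 carriers were lower and 0 higher (median -0.47), and in no-Cre tail buds 5 were lower and 0 higher (median -0.34). They included Slc2a12, a glucose transporter, at -1.93 ± 0.14 and -1.82 ± 0.16, and Slc16a1, the lactate carrier MCT1, at -0.49 ± 0.07 in both. Of the 19 HIF targets, 9 were lower and 0 higher in Lin28a-induced (median -0.29), and 9 were lower and 3 higher in no-Cre tail buds (median -0.17). Ndrg1, a gene strongly induced by hypoxia, measured 8.13 to 9.20 CPM in Lin28a-induced and 9.05 to 10.8 CPM in no-Cre libraries, against 24.8 to 27.8 CPM in wild type. Its log2 fold changes were -1.60 ± 0.09 and -1.42 ± 0.10. Vegfa, the angiogenic growth factor, had -0.66 ± 0.08 and -0.58 ± 0.09. Mxi1, of the same list, was 1 of the 3 higher in no-Cre tail buds, at 0.28 ± 0.07 (edgeR adjusted p = 0.00416). Pdk1, a further pyruvate dehydrogenase kinase, measured 68.6, 79.2, 66.9 and 82.9 CPM in Lin28a-induced and 85.8, 93.8 and 94.9 CPM in no-Cre libraries, against 132, 138 and 118 CPM in wild type, and fell by 0.80 ± 0.08 and 0.50 ± 0.09. Except for Mxi1, the adjusted p of these genes against wild type was 0.000514 or less in edgeR. Pdk1 did not pass between the transgenic groups (-0.30 ± 0.08, edgeR adjusted p = 0.0674).

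Of the other lists, some had genes called in both directions against wild type and some in 1 direction. Of 16 other glycolytic steps and isozymes, 5 were higher and 7 lower in Lin28a-induced (median -0.27), and 5 higher and 6 lower in no-Cre tail buds (median -0.21). Tpi1, triosephosphate isomerase, was lower in Lin28a-induced tail buds at -0.53 ± 0.07, Eno3, the muscle enolase, at -0.69 ± 0.06 and Aldoc at -1.13 ± 0.16, and Pfkm, the muscle phosphofructokinase, was higher at 0.35 ± 0.06 (edgeR adjusted p of 0.000238 or less). For pyruvate entry, 3 of 12 genes were higher and 4 lower in Lin28a-induced (median -0.17), and 4 higher and 2 lower in no-Cre (median -0.07). In the pentose phosphate pathway 3 of 7 were lower in Lin28a-induced (median -0.14) and 2 in no-Cre (median 0.02), with none higher. Of 5 gluconeogenic genes, 1 was lower in Lin28a-induced (median 0.14), and 1 was lower and 1 higher in no-Cre (median 0.20). Pfkfb2 was the 1 lower gene of 4 PFKFB regulators in both (list medians -0.15 and -0.12), at -0.31 ± 0.12 in Lin28a-induced and -0.36 ± 0.13 in no-Cre tail buds (edgeR adjusted p = 0.0456 and 0.0397). Without wild-type replicate 2 it had -0.13 and -0.18 (adjusted p = 0.279 and 0.191). The call in Lin28a-induced tail buds was also lost without Lin28a-induced replicate 2, 4 or 5 or any 1 no-Cre library, and that in no-Cre tail buds without Lin28a-induced replicate 2 or 4 or any 1 no-Cre library.

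Among 11 regulators, 4 were higher and 3 lower in Lin28a-induced (median 0.06), and 4 higher and 1 lower in no-Cre tail buds (median 0.11). Hif1a, the oxygen-regulated factor that activates glycolytic genes, measured 259, 269, 273 and 266 CPM in Lin28a-induced and 249, 250.5 and 258 CPM in no-Cre libraries, against 217, 203 and 217 CPM in wild type. It was higher than wild type in both, at 0.33 ± 0.05 and 0.25 ± 0.05 (edgeR adjusted p = 8.2e-05 and 0.00145). Mycn, a Myc family factor that can also bind such genes, was higher at 0.61 ± 0.08 and 0.54 ± 0.08 (edgeR adjusted p = 2.2e-05 and 0.000136). Mlxip, which encodes MondoA, was higher at 0.47 ± 0.08 and 0.45 ± 0.08 (edgeR adjusted p = 0.000252 and 0.000823). Epas1, which encodes HIF-2 alpha, was higher in no-Cre than in wild type at 1.25 ± 0.21 (edgeR adjusted p = 0.000682). Epas1 measured 11.4 to 19.4 CPM in Lin28a-induced, 16.6 to 19.4 CPM in no-Cre and 5.44 to 8.91 CPM in wild-type libraries. Myc was lower in Lin28a-induced at -0.31 ± 0.09 (edgeR adjusted p = 0.0124; 0.0656 without wild-type replicate 3), and had -0.24 ± 0.10 in no-Cre tail buds (0.0642). Arrdc4, an arrestin-domain gene and not a transcription factor, was lower in both, at -0.68 ± 0.08 and -0.55 ± 0.09. Surface ectoderm, endothelial and mitochondrial transcripts differed in the same comparisons, as given above, and their part in these lists was not tested.

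**Figure D5:**
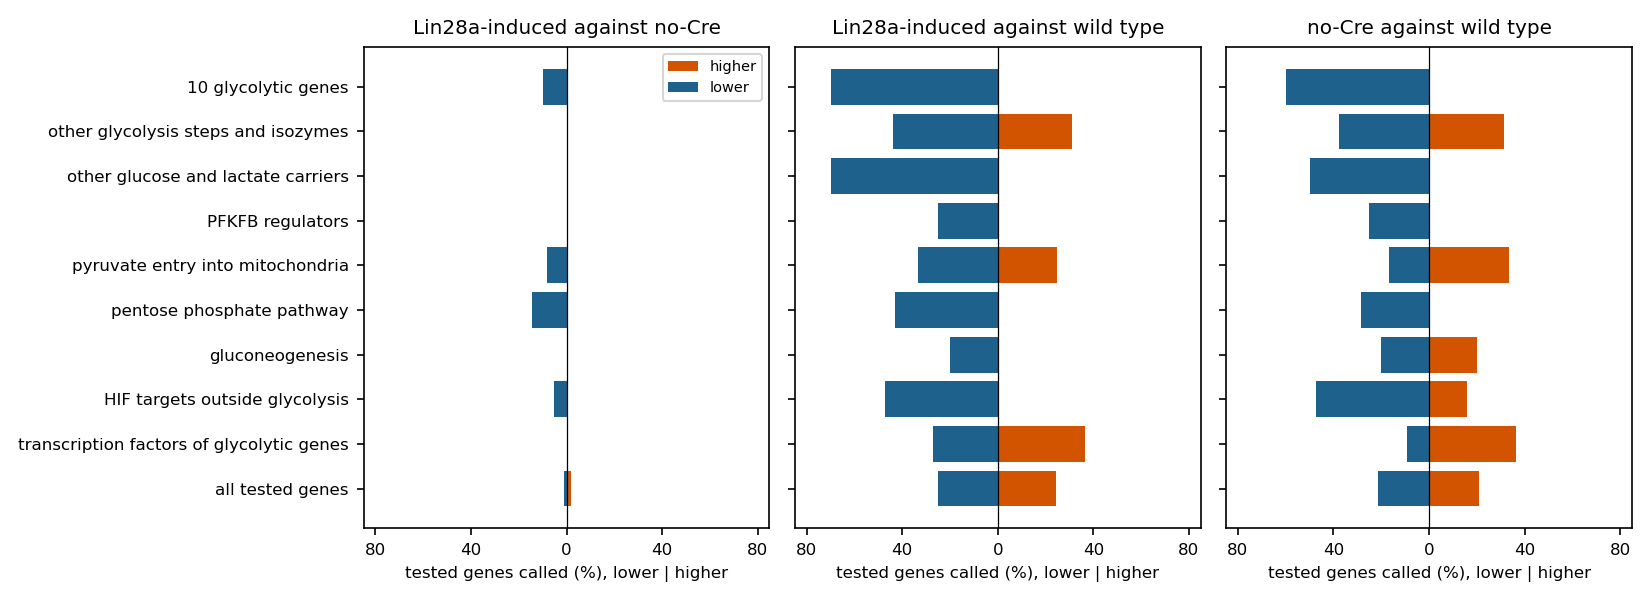
Percent of the tested genes of each list called lower (left of 0) and higher (right of 0) with an adjusted p under 0.05 in the 3 comparisons, with all tested genes in the bottom bar. The 10 glycolytic genes, the other carriers, the PFKFB regulators and the pentose phosphate pathway have bars on the lower side only. The carriers and the PFKFB regulators have no bar in Lin28a-induced against no-Cre.

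Because Lin28a acts on let-7, the annotated 3′ UTRs were searched for the let-7 seed match. Mature let-7a is shown with its seed, bases 2 to 8, in capitals (RefSeq, GRCm38.p6).
mmu-let-7a-5p: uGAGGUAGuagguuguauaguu
The 7-letter match CTACCTC was in 0 of the 10 UTRs, which were 179 to 2285 bases long, one per gene, and in 10.4% of 19589 UTRs of all genes, on the sense strand. No match says only that these letters are not in these windows.

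Promoters of most of the 10 genes hold a short word that HIF is known to bind. RefSeq promoter windows of 250 bases before to 50 after a start were found for all 10, 16 windows in all. ACGTG, a form of the core of that element, was searched on both strands. It was in 9 of the 16 windows and in 19.6% of all 32851 windows of that length. ACGTG was in at least 1 window of 8 of the 10 genes, all but Pfkp and Eno1, and of 21.8% of the 27025 genes with a window. Windows of a gene can overlap, and the 2 Aldoa windows with ACGTG hold the same match. The other form of the core, GCGTG, was not counted. CACGTG, the E-box that Myc and MondoA factors bind and that holds ACGTG on each strand, was in 1 of the 16 windows, of Ldha, and in 7.15% of all windows. Of the 15 HIF targets outside glycolysis with a window, 12 had ACGTG in at least 1. The windows of Ldha, which has the most matches, and of Pgk1, the gene called in all 3 comparisons, are shown with ACGTG or its complement CACGT in capitals (GRCm38.p6, plus strand).
Ldha, chr7:46845554-46845853: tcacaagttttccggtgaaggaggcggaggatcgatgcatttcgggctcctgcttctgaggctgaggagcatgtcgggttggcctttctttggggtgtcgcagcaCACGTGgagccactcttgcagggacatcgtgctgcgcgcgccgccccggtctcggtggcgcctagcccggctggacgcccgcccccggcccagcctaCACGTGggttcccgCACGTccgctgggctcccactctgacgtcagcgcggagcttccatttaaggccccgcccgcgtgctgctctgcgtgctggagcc
Pgk1, chrX:106186850-106187149: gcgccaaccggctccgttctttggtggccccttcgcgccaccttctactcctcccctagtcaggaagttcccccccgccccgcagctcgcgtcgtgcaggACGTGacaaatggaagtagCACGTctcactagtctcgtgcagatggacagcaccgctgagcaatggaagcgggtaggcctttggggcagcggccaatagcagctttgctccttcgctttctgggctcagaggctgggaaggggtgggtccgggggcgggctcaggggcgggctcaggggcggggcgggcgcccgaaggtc
The Ldha window has 2 E-boxes and 1 further match, which count as 5 on both strands, and the Pgk1 window has 2 matches. Pfkp, with the largest fall against wild type, had no ACGTG in its window, and Hk2, with no call, had 2. The Pfkp window and a window of Eno1 do hold GCGTG. A match is a description of the letters and not a site.

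The genes whose profile over the 10 libraries was most like the mean of the 10 glycolytic genes were found among 9636 tested genes of at least 10 CPM outside all lists. Closest by root mean square distance of centred log2 CPM were Znhit1 (0.0572), Mxd1 (0.0578), Arxes2 (0.0636), Sec62 (0.0664) and Rcn3 (0.0665). Znhit1 averaged 20.6 CPM in Lin28a-induced, 22.3 CPM in no-Cre and 26.8 CPM in wild-type tail buds, and Mxd1 13.3, 15.1 and 17.7 CPM. Like the mean profile, all 5 were lowest on average in Lin28a-induced and highest in wild-type tail buds. They were chosen for that likeness, so the shared order is no separate result.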

How the data were processed

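The authors deposited unnormalized read counts, 1 row per gene symbol and 1 column per library. Per the labels' protocols, total RNA was made into stranded libraries and sequenced as single reads of 75 bases. Per the submitters' processing notes, STAR 2.3.1z4, featureCounts, mm10 and DESeq2 were used. The sources used here give no annotation release, no strand setting and no rule for reads that align more than once, so counts at copies may depend on these. Nothing in the labels says that replicates of a group came from separate litters, so p-values measure the spread between these libraries.

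Rows were filtered with filterByExpr (16340 tested), scaled with TMM and tested in edgeR 4.0.16 (quasi-likelihood F test), with all 10 libraries in 1 fit, and adjusted after Benjamini-Hochberg over all tested genes at a threshold of 0.05. The wild-type spread thus enters the first comparison. Intervals are the log2 fold change ± 1.96 SE. The scripts were tested on simulated data. DESeq2 1.42.0, limma 3.58.1 (voom), R 4.3.3 and Python 3.11.15 served the alternatives and summaries. Coordinates, transcripts and copies came from GENCODE M21 (GRCm38), and 35654 of 38720 rows matched it by symbol. Copies were found by shared 32-base words.

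The members and lists were chosen with earlier results of these data known. Named genes are all 10 members, Hif1a, Myc, Mycn, Pdk1 and Lin28a, up to 4 genes per list with the smallest p in a comparison, copies with at least 1% of a member's counts and the 5 nearest profiles. The closing section gives the alternatives tried.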

Additional observations from a re-analysis of the deposited data

Results flagged for a closer look

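Of 58 quantities checked for a sample far from the other 3 of the Lin28a-induced group, 3 had one, and chance flags about 1 in 20. Pgam1 stood at 84.7 CPM in replicate 5, against 72.1 to 73.5 CPM in replicates 2 to 4. Epas1, which encodes HIF-2 alpha, stood at 11.4 CPM in replicate 2, against 18.3 to 19.4 CPM in the other replicates. Mlxip, which encodes MondoA, stood at 96.1 CPM in replicate 2, against 104.9 to 105.8 CPM. Lin28a-induced replicate 5 is female and had the highest level of 9 of the 10 glycolytic genes in its group.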

How the results depend on the processing

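Limits were few libraries, a wild-type group that stands apart, and reads shared with copies. Lin28a-induced against no-Cre called 1 of the 10 genes, 3 with DESeq2, 3 with only these 2 groups in the fit and 0 with a sex term, and 0 to 3 without 1 library. The other steps and isozymes, 0 called, had 1 with DESeq2, 4 with only these 2 groups and 0 to 1 without 1 library. Over all genes the calls of that comparison ranged from 104 without no-Cre replicate 7 to 1791 with only these 2 groups (476 as reported), and were 982 with DESeq2, 303 with a sex term and 1482 without wild-type replicate 2. The 7 and 6 calls against wild type stayed within 1.5 times under the alternatives run, and without 1 library they were 7 and 4 to 7. Signs turned for genes near 0: Gapdh was 0.00546 in Lin28a-induced against wild type with no filter and -0.376 in no-Cre against wild type with copies added, and Pgam1 was -0.0245 in no-Cre against wild type with a sex term. Without 1 library, Slc2a1 ran from -0.0415 to 0.0166 against no-Cre, and against wild type Hk2 from -0.0799 to 0.215 and Gapdh from -0.0587 to 0.0227 in Lin28a-induced, and Gapdh from -0.00113 to 0.0803 and Pgam1 from -0.0327 to 0.0967 in no-Cre. For these turned signs the cause was not tested, other than that added copies add wild-type counts. Per kilobase of the longest transcript, levels were higher for all 10 genes, with Pkm first in all groups and Eno1 next after Aldoa.

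Replicate numbers 2 and 3 occur in both Lin28a-induced and wild-type libraries, but same-numbered libraries did not deviate together (correlations -0.02 and -0.10). A replicate block on those 4 libraries called 7 of the 10 genes, as without it, 5 of the other steps and isozymes, where 12 were called, and 3596 of all genes, where 8050 were called; it also has fewer samples. No paired analysis was possible for the other comparisons because their groups share no replicate number.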
